A study of Mus musculus with 32 samples.

Results

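The 54 genes described here encode the non-collagen part of the extracellular matrix of the mouse heart, namely its glycoproteins and proteoglycans. They were chosen by gene name and sorted by role into 4 classes: 16 elastic fibre and microfibril genes, 9 basement membrane genes, 14 proteoglycan and leucine-rich repeat genes, and 15 matricellular and adhesive genes. The arrays held 72 probes for them, and 52 of the 54 genes were among the 27532 genes tested, the other two being Hapln1 and Tnc, none of whose probes passed the filter on dim signals. Heart RNA came from 32 individual C57BL/6 mice, 4 in each of 8 groups. Stressed mice sat in a wire mesh box in the cage of an aggressor mouse for 6 hours a day and were also placed with the aggressor and bitten, over 5 days (T5) or 10 days (T10). They then rested for 1 day (R1), 10 days (R10) or 42 days (R42), which gave the groups stressed T5R1, T5R10, T10R1 and T10R42. Each had its own control group of mice in mesh boxes in a cage with no aggressor. The labels used here give neither age nor sex. The questions were what each exposure does to these genes after a short rest, and what of it is still there after a long one.

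The matrix around heart muscle is laid down mostly by fibroblasts. Fibrillin microfibrils form threads on which elastin is deposited and which hold latent TGF-beta in store. Laminins, nidogens and perlecan form the sheet on which muscle and endothelial cells rest. Small leucine-rich proteoglycans such as decorin and lumican bind collagen fibrils and set their thickness. Matricellular proteins such as osteopontin and SPARC bind cells and matrix and are abundant where matrix is being rebuilt. In many forms of cardiac injury these genes are made together with collagen.

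Levels below are log2 signals relative to the 75th percentile of the array, so that 0 is the level of that percentile, and are comparable between animals but not between genes. Changes are stressed minus control, in log2 units with their standard error (SE, n = 4 mice per arm). A gene is said to have risen or fallen where the adjusted p, over all tested genes and two-sided, was below 0.05. Where several probes measured a gene the brightest was used. Values of animals are given in the order of replicates 1 to 4.

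Per array, 28792 to 40672 probes passed the scanner software's background test, and arrays of a group correlated at 0.9793 or more. Each condition had 1 slide of 8 arrays, so differences between conditions cannot be told apart from differences between slides. The T10R1 slide was also scanned on a different day from the other slides. On each slide the stressed mice took the last 2 columns of arrays and the controls the first 2, so array column and stress cannot be told apart, while each row of a slide had stressed and control hearts. The scanner software marked 3 arrays for evaluation, namely T5R10 stressed replicates 1 and 2 and T5R10 control replicate 4. The tissue label was checked with 16 cardiomyocyte, 18 fibroblast and 16 endothelial markers, all of which were tested and above background on some arrays of T5R1 and of T10R1.

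One day after the 5-day exposure (T5R1), 27 of the 52 genes rose and 3 fell, where 5.3% of all tested genes rose and 8.43% fell. The median change of the 52 was 0.33, against -0.12 over all genes, and 37 of the 52 were measured higher, against 33.4% of all genes. Of the elastic fibre and microfibril genes 10 of 16 (62.5%) rose and 1 fell (median 0.54), and of the matricellular and adhesive genes 9 of 14 (64.3%) rose and none fell (median 0.47). In the basement membrane class 4 of 9 rose and 1 fell (median 0.32), and among proteoglycan and leucine-rich repeat genes 4 of 13 rose and 1 fell (median 0.08). In 27 genes every stressed heart lay above every control heart, and in 3 every stressed heart lay below, where 6.63% and 15.7% of all genes did so. Averaged over the 52 genes, the stressed hearts lay 0.76, 0.4, 0.24 and 0.37 above the control mean, and the controls between -0.06 and 0.06 of it. Stressed replicate 1 was the highest, and without it 23 genes rose and 2 fell. Fitted on the arrays of the T5R1 slide alone, 18 genes rose and 1 fell.

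Fibrillin-1, the main building block of the microfibril, gave the largest change of all 52 genes. Fbn1 stood at 2.98, 2.01, 1.67 and 1.5 in the T5R1 stressed hearts, against 0.21, 0.05, -0.1 and 0.16 in their controls. Replicate 1 was the highest of the stressed hearts, and the lowest stressed heart was still far above the highest control. Fbn1 rose by 1.96 ± 0.23, or 3.9-fold (adjusted p = 3.78e-06). Mfap5, a small glycoprotein bound to fibrillin, stood at 5.38, 4.43, 4.24 and 4.22 in the stressed hearts, against 3.35, 3.25, 2.94 and 2.9 in controls. The arms did not overlap, and the rise was 1.46 ± 0.20 (adjusted p = 2.29e-05). Mfap4, which binds fibrillin and elastin fibres, stood at 4.74, 3.78, 3.21 and 3.7 in the stressed hearts, against 2.76, 2.45, 2.23 and 2.4 in controls. Again no stressed heart was as low as a control, and Mfap4 rose by 1.40 ± 0.22, or 2.64-fold (adjusted p = 0.000114).

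The other risen genes of the elastic class covered the fibre itself and the proteins that assemble it. Elastin (Eln) rose by 0.93 ± 0.15, and its 4 stressed hearts ran from -0.75 to -0.14, against -1.46 to -1.27 in controls. Emilin1, an elastin-associated glycoprotein that restrains TGF-beta processing, rose by 1.26 ± 0.14 (adjusted p = 1.51e-06), and Mfap2, a partner of fibrillin, by 0.98 ± 0.18. Of the fibulins, which link elastin to microfibrils, Fbln2 rose by 0.75 ± 0.11, Efemp2 by 0.64 ± 0.14 and Fbln5 by 0.41 ± 0.12, the last with arms that overlapped and a call lost without control replicate 3 or 4 or stressed replicate 1. Ltbp3, a binding protein of latent TGF-beta, rose by 0.43 ± 0.11. No call was made for Ltbp1 (-0.02), Ltbp4 (-0.16), Fbln1 (-0.14), Efemp1 (-0.35 ± 0.13, adjusted p = 0.0618) or Fbn2 (0.32 ± 0.16). Emilin2 went the other way from Emilin1. It stood at 2.9, 3.37, 2.81 and 3.08 in the stressed hearts, against 3.59, 3.39, 3.34 and 3.36 in controls. Stressed replicate 2 lay within the control range and the other three below it. Emilin2 fell by 0.38 ± 0.10 (adjusted p = 0.0124), a call lost without stressed replicate 1 or 3 and reaching an adjusted p of at most 0.0999 over 16 alternatives.

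**Figure D1:**
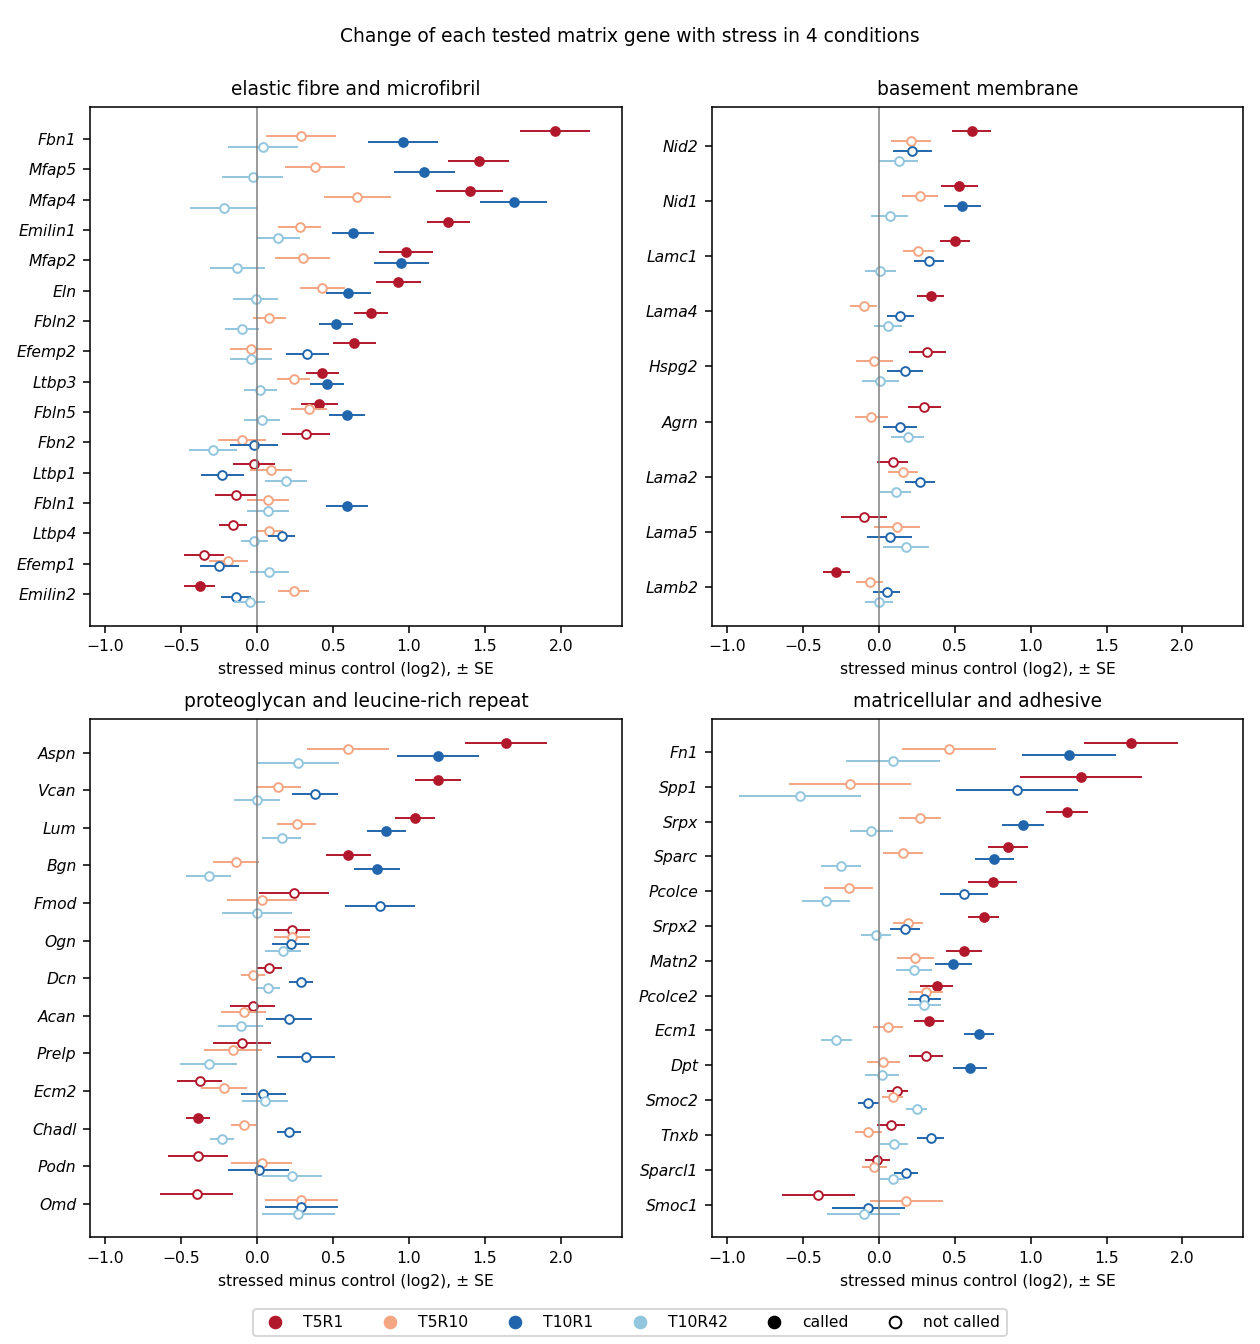
Change of each of the 52 tested genes with stress (stressed minus control, log2, horizontal axis) in the 4 conditions, by class. Points are the fitted change, lines its SE (n = 4 per arm), filled points are called at an adjusted p below 0.05. The filled points belong to T5R1 and T10R1 only, with Fbn1 in T5R1 the farthest to the right at 1.96.

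Among the matricellular and adhesive genes fibronectin led. Fn1, the cell-binding scaffold of new matrix, stood at 5.82, 4.63, 3.58 and 3.87 in the T5R1 stressed hearts, against 2.73, 2.95, 2.8 and 2.8 in controls. The stressed hearts were spread widely and lay above every control. Fn1 rose by 1.66 ± 0.31, or 3.15-fold (adjusted p = 0.000721). Srpx, a sushi-repeat protein, stood at 0.95, 1.11, 0.79 and 0.69 in the stressed hearts, against -0.21, -0.5, -0.32 and -0.37 in controls. Its stressed hearts were close together and apart from the controls, and it rose by 1.24 ± 0.14 (adjusted p = 2.63e-06). Sparc, a collagen-binding protein needed for collagen assembly, stood at 8.98, 8.54, 8.62 and 8.4 in the stressed hearts, against 7.93, 7.81, 7.68 and 7.69 in controls. Sparc rose by 0.85 ± 0.13, or 1.81-fold, with no overlap.

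Osteopontin was measured near background. Spp1, a cell-binding phosphoprotein of macrophages and activated fibroblasts, stood at -1.12, -2.4, -2.88 and -3.08 in the T5R1 stressed hearts, against -4.02, -3.58, -3.54 and -3.66 in controls. All 4 stressed and 3 of the 4 control arrays were above background, and stressed replicate 1 lay far above the other three. Spp1 rose by 1.33 ± 0.40 (adjusted p = 0.026), a call lost without control replicate 1, control replicate 2 or stressed replicate 1 (adjusted p of at most 0.143 over 16 alternatives). The Spp1 change was 0.45 after normexp correction and 0.82 in the authors' values, where the call was kept. Srpx2, a second sushi-repeat protein, rose by 0.69 ± 0.10, and Matn2, a matrilin that bridges matrix filaments, by 0.56 ± 0.12. The procollagen processing enhancers Pcolce and Pcolce2 rose by 0.75 ± 0.16 and 0.38 ± 0.11, and the extracellular matrix protein Ecm1 by 0.33 ± 0.10 with overlapping arms. The Pcolce2 call was lost without control replicate 2 or stressed replicate 4, and the Ecm1 call without control replicate 2 or 4 or stressed replicate 1 or 2. Sparcl1 (-0.01), Tnxb (0.08), Smoc1 (-0.4), Smoc2 (0.12) and Dpt (0.31 ± 0.11, adjusted p = 0.0593) were not called. Dpt passed the threshold after normexp correction, after quantile normalization, in the authors' values and without stressed replicate 3.

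In the basement membrane class the linkers rose with a part of the laminin chains. Nid2, a nidogen that joins the laminin and collagen IV networks, stood at 0.92, 0.63, 0.79 and 0.59 in the T5R1 stressed hearts, against 0.26, 0.09, 0.07 and 0.04 in controls. Nid2 rose by 0.61 ± 0.13 (adjusted p = 0.00205). Its relative Nid1 stood at 4.71, 4.42, 4.2 and 4.35 in the stressed hearts, against 3.98, 3.85, 3.87 and 3.87 in controls, and rose by 0.53 ± 0.12 (adjusted p = 0.00376). Neither nidogen had overlapping arms. Lamc1, the gamma chain of most laminins, stood at 4.95, 4.68, 4.45 and 4.66 in the stressed hearts, against 4.26, 4.14, 4.27 and 4.06 in controls. Lamc1 rose by 0.50 ± 0.10 (adjusted p = 0.00104), again without overlap.

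Of the alpha chains, Lama4, found in the basement membrane of vessels, rose by 0.34 ± 0.09 (not called without control replicate 3 or stressed replicate 1), while the muscle chain Lama2 (0.09) and Lama5 (-0.1) were not called. Lamb2, a beta chain, stood at 3.94, 3.87, 3.62 and 3.83 in the T5R1 stressed hearts, against 4.21, 4.11, 3.9 and 4.15 in controls. Only the highest stressed heart reached into the control range. Lamb2 fell by 0.28 ± 0.09 (adjusted p = 0.0359), a call lost in 10 of 16 alternatives (adjusted p of up to 0.26), among them normexp correction, quantile normalization, the authors' values and leaving out control replicate 1, 2 or 4 or stressed replicate 3 or 4. Its paralog Lamb1, which is not among the 54 and was picked out after its values were seen, rose by 0.53 ± 0.09 (adjusted p = 0.000413). The heparan sulfate proteoglycans perlecan (Hspg2, 0.32 ± 0.12, adjusted p = 0.0817) and agrin (Agrn, 0.30 ± 0.11, adjusted p = 0.0616) missed the threshold. Both passed it after normexp background correction, after quantile normalization and in the authors' values, and Hspg2 also with its second probe (below).

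**Figure D2:**
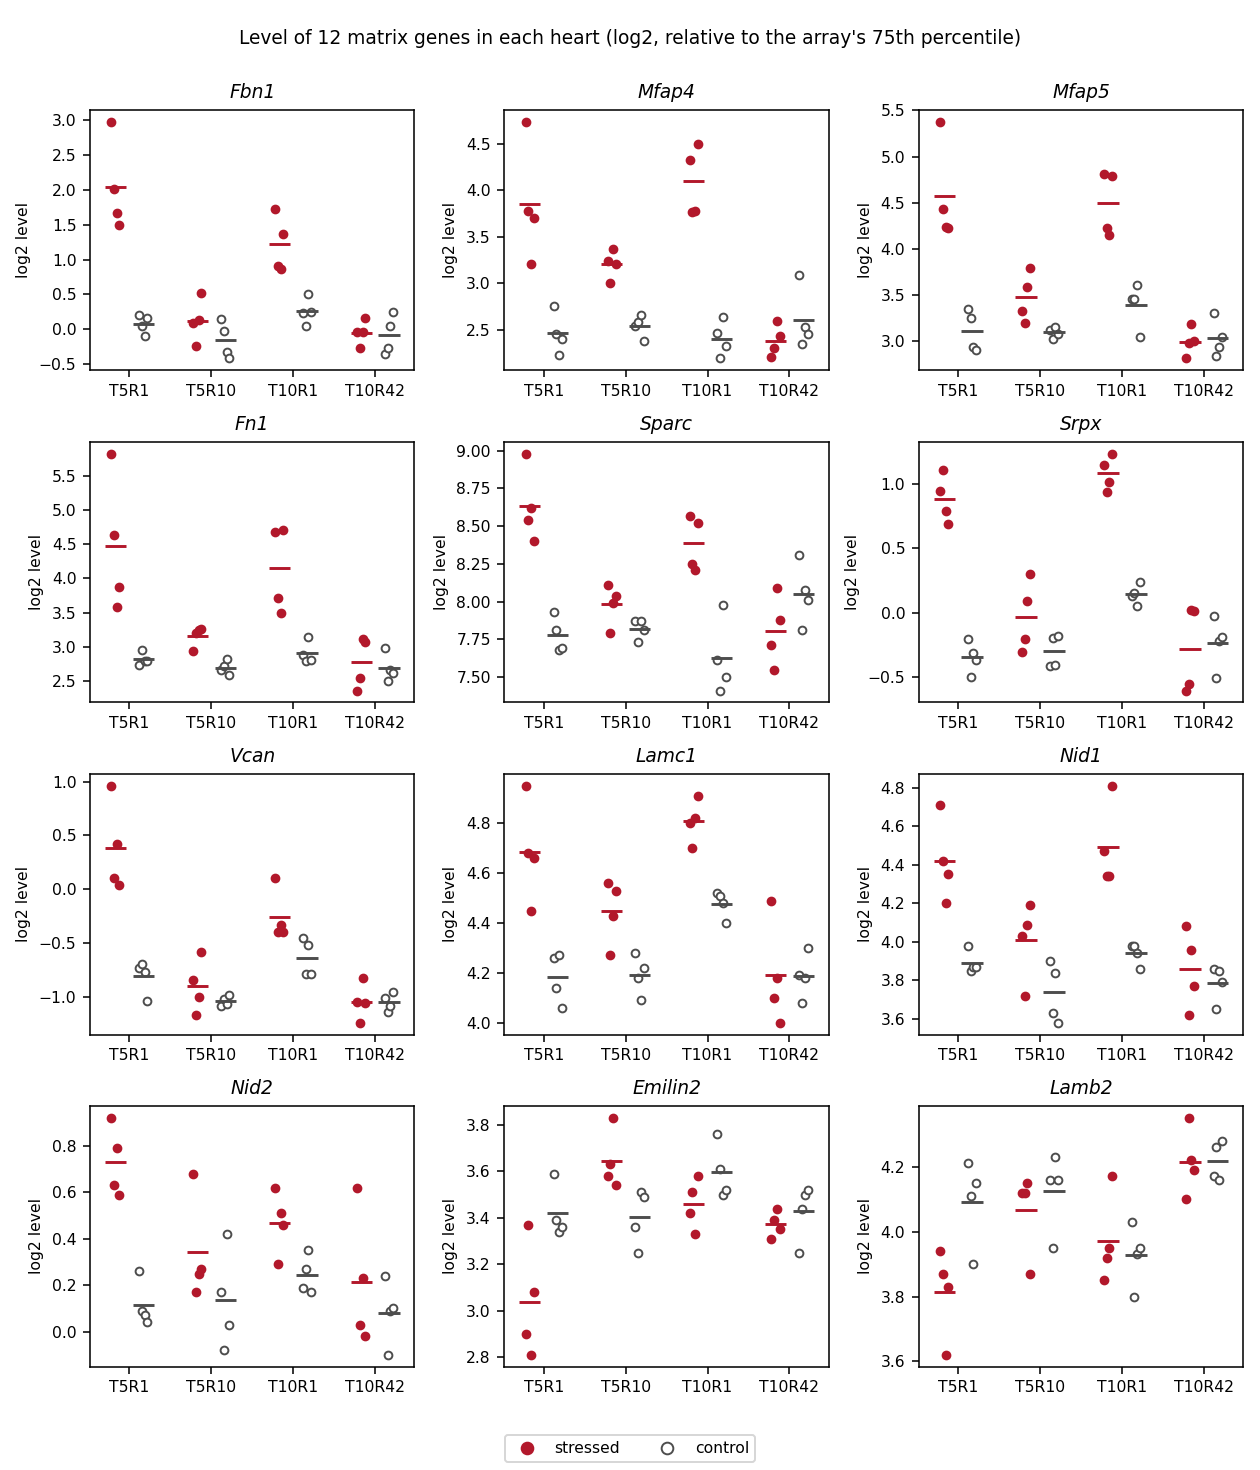
Level of 12 genes in each heart (log2 relative to the array's 75th percentile, vertical axis) by condition, with stressed hearts as filled points, controls as open points and bars at the means of 4. In T5R1 stressed replicate 1 is the highest stressed heart for Fbn1, Mfap4, Mfap5, Fn1, Sparc, Vcan, Lamc1, Nid1, Nid2 and Lamb2. In T10R42 the arms overlap in all 12 genes.

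Among proteoglycans and leucine-rich repeat proteins a few genes rose strongly and most were not called. Aspn, a leucine-rich protein that binds collagen and TGF-beta, stood at 2.54, 1.19, 1.06 and 1.27 in the T5R1 stressed hearts, against -0.08, -0.11, -0.15 and -0.15 in controls. Replicate 1 stood apart from the other stressed hearts, yet all 4 were above the controls. Aspn rose by 1.64 ± 0.27, or 3.11-fold (adjusted p = 0.000179). Vcan, the large hyaluronan-binding proteoglycan of provisional matrix, stood at 0.96, 0.1, 0.42 and 0.04 in the stressed hearts, against -0.73, -0.69, -0.77 and -1.04 in controls. Vcan rose by 1.19 ± 0.15 (adjusted p = 1.22e-05). Lum, a keratan sulfate proteoglycan of collagen fibrils, stood at 5.18, 4.9, 4.81 and 4.88 in the stressed hearts, against 4.1, 3.89, 3.69 and 3.92 in controls, and rose by 1.04 ± 0.13 (adjusted p = 1.02e-05). The arms of Vcan and of Lum did not overlap.

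Bgn, the biglycan gene on chromosome X, stood at 2.52, 2.18, 1.82 and 1.91 in the T5R1 stressed hearts, against 1.5, 1.75, 1.19 and 1.59 in controls. Bgn rose by 0.60 ± 0.15 (adjusted p = 0.00755), with the lowest stressed heart just above the highest control. Chadl, a chondroadherin-like leucine-rich protein, was the member with a fall whose arms were apart. It stood at 0.45, 0.62, 0.53 and 0.5 in the stressed hearts, against 0.95, 1.02, 0.78 and 0.93 in controls. Chadl fell by 0.39 ± 0.08 (adjusted p = 0.00165), a call kept in all 16 alternatives. Decorin (Dcn, 0.08 ± 0.08), which binds collagen fibrils, was not called, nor were Fmod (0.24), Ogn (0.23), Acan (-0.03), Prelp (-0.1), Ecm2 (-0.38 ± 0.15), Podn (-0.39 ± 0.20) and Omd (-0.4 ± 0.24).

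Several leucine-rich repeat genes lie side by side, and calls differed between neighbours. On chromosome 13 the genes Ecm2, Aspn, Omd and Ogn follow each other with no other protein-coding gene of the RefSeq table between them, and their array probes lie 34.3, 25.3 and 31.6 kb apart. In T5R1 only Aspn of these was called. Its changes were 1.64 in T5R1, 0.6 in T5R10, 1.19 in T10R1 and 0.27 in T10R42. Ecm2 changed by -0.38, -0.22, 0.04 and 0.05, Omd by -0.4, 0.29, 0.29 and 0.27, and Ogn by 0.23, 0.23, 0.22 and 0.17 in the same order of conditions. On chromosome 10 the probes of Dcn and Lum lie 54.9 kb apart, and Dcn changed by 0.08, -0.03, 0.29 and 0.07 where Lum changed by 1.04, 0.26, 0.85 and 0.16. The Dcn hearts in T5R1 ran from 7.83 to 8.15 with stress, against 7.92 to 7.96 in controls, so the arms overlapped. In T10R1 they ran from 7.91 to 8.23 with stress, against 7.7 to 7.8 in controls, and did not overlap (0.29 ± 0.08, adjusted p = 0.0595). Dcn was called in T10R1 after normexp correction (0.31), after quantile normalization (0.42) and in the authors' values (0.4). In T5R1 it was called after quantile normalization (0.27, adjusted p = 0.0424). Differences between neighbouring genes were not tested. Fmod and Prelp, whose probes lie 137.1 kb apart on chromosome 1, were called in no condition.

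**Figure D3:**
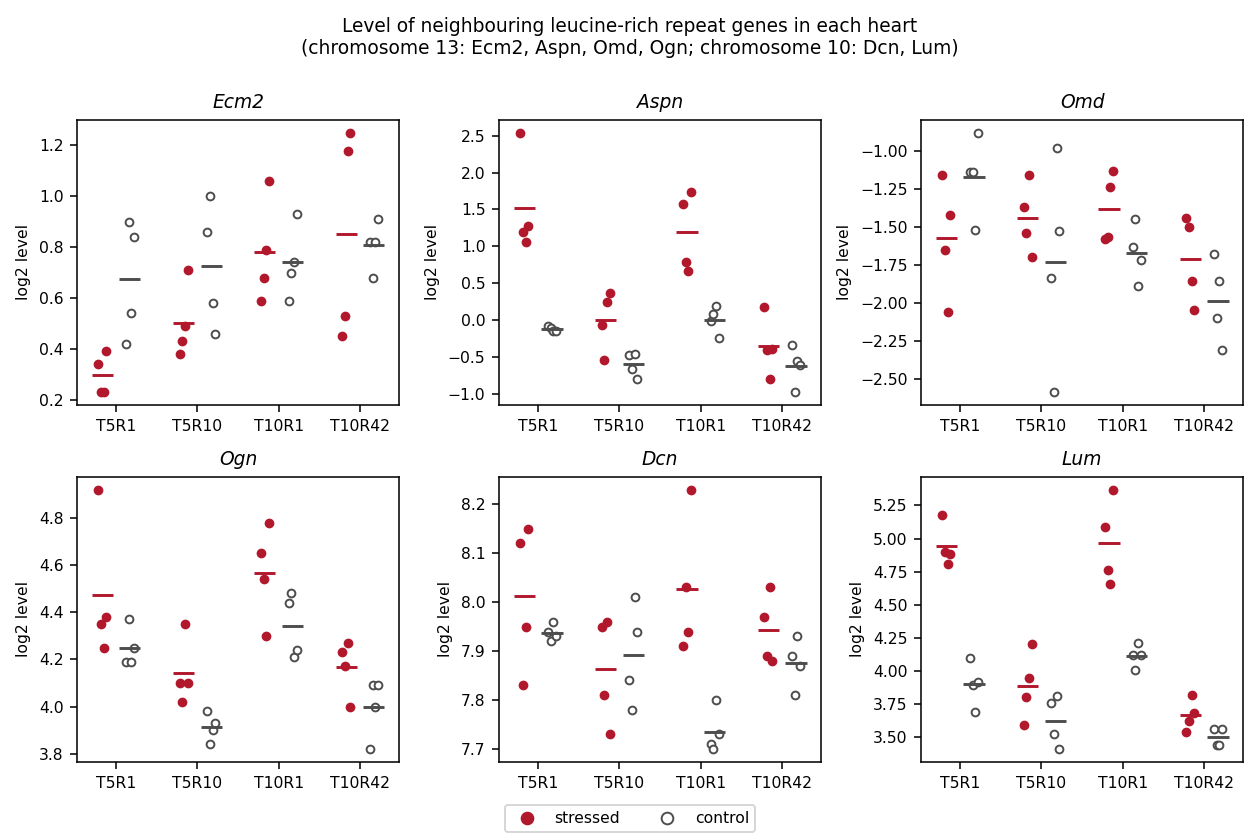
Level in each heart (log2 relative to the array's 75th percentile, vertical axis) of the chromosome 13 neighbours Ecm2, Aspn, Omd and Ogn and the chromosome 10 neighbours Dcn and Lum, by condition, with stressed hearts filled, controls open and bars at the means of 4. The stressed hearts of Aspn and Lum stand above all controls in T5R1 and T10R1, while those of Omd overlap the controls in all 4 conditions.

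The promoters of the chromosome 13 neighbours are shown because the genes lie side by side while Aspn alone of them was called. Each is the RefSeq sequence on GRCm38.p6 from 250 bases before to 50 bases after the gene's start, on the plus strand of chromosome 13, with the letters TATAAA on either strand in capitals.
Ecm2 at chr13:49504560-49504859: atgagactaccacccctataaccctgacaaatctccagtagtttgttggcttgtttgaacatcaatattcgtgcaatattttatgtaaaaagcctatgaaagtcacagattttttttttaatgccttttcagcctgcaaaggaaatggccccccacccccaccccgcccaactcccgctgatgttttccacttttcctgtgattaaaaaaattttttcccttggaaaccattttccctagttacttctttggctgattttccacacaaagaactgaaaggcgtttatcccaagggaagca
Aspn at chr13:49544193-49544492: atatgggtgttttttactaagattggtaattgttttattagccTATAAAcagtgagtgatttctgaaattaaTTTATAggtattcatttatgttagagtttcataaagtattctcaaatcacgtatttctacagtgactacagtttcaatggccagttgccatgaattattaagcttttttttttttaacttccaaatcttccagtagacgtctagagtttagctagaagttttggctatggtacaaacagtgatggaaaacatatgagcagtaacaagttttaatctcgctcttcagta
Omd at chr13:49582212-49582511: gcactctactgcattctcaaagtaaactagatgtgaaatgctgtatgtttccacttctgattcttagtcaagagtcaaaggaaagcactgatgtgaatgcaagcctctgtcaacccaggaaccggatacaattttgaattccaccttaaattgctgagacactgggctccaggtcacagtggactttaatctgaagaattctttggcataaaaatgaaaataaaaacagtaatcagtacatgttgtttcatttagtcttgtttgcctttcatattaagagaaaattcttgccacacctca
Ogn at chr13:49607765-49608064: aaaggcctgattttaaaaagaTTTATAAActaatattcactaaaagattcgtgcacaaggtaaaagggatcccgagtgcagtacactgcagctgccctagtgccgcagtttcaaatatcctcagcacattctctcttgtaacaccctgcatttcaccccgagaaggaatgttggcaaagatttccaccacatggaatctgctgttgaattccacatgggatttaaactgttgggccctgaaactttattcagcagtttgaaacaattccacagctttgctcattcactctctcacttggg
The letters were found in Aspn and in Ogn, where the matches on the opposite strands overlap, and not in Ecm2 or Omd. Of all promoters given there, 13.62% hold them, and 6 of the 40 members with an entry do. In Aspn they begin 207 and 178 bases before the start. Ogn, which holds them too, was called in no condition.

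One day after the 10-day exposure (T10R1), 20 of the 52 genes rose and none fell, where 0.774% of all tested genes rose and 0.36% fell. The median change was again 0.33, against 0 over all genes, and 46 of the 52 were measured higher, against 50% of all genes. By class, 10 of 16 elastic fibre and microfibril genes rose (median 0.55), 6 of 14 matricellular and adhesive genes (0.52), 3 of 13 proteoglycan and leucine-rich repeat genes (0.29) and 1 of 9 basement membrane genes (0.17). In 29 genes every stressed heart lay above every control heart, where 4.3% of all genes did so, and in 0 genes every stressed heart lay below, where 5.48% did. Averaged over the 52 genes, the stressed hearts lay 0.48, 0.32, 0.35 and 0.58 above the control mean, and the controls between -0.06 and 0.03 of it. The count rests on the spread shared by all 32 arrays. Fitted on the T10R1 slide alone, Srpx was the 1 gene called, and without control replicate 1, 2 or 4 or stressed replicate 1 or 4 the counts were 11, 11, 10, 10 and 10.

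Mfap4 gave the largest change. It stood at 4.33, 3.77, 3.78 and 4.5 in the T10R1 stressed hearts, against 2.46, 2.19, 2.64 and 2.32 in controls. No stressed heart came near the controls, and Mfap4 rose by 1.69 ± 0.22, or 3.24-fold (adjusted p = 0.000139). Mfap5 stood at 4.81, 4.23, 4.15 and 4.79 in the stressed hearts, against 3.45, 3.45, 3.61 and 3.04 in controls, and rose by 1.10 ± 0.20 (adjusted p = 0.00595). Fbn1 stood at 1.72, 0.91, 0.87 and 1.37 in the stressed hearts, against 0.23, 0.05, 0.5 and 0.25 in controls. The arms of Mfap5 and of Fbn1 were apart. Fbn1 rose by 0.96 ± 0.23 (adjusted p = 0.0389), a call lost in 11 of 16 alternatives with an adjusted p of up to 0.184, among them leaving out any of the controls or stressed replicate 1 or 4. Mfap2 rose by 0.95 ± 0.18, Emilin1 by 0.63 ± 0.14, Eln by 0.60 ± 0.15, Fbln5 by 0.59 ± 0.12, Fbln2 by 0.52 ± 0.11 and Ltbp3 by 0.46 ± 0.11. Of 16 alternatives, the call was lost in 12 for Eln, 10 for Emilin1, 10 for Ltbp3, 8 for Fbln2, 2 for Mfap2 and 1 for Fbln5. For Eln, Emilin1, Ltbp3 and Fbln2 these include leaving out control replicate 1, 2 or 4 or stressed replicate 4. The Emilin1 change was 0.35 after normexp correction, and Mfap2 lost its call without stressed replicate 1.

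Fbln1, a fibulin of elastic fibres and vessel walls, rose here by 0.59 ± 0.14 (adjusted p = 0.03), having been measured at -0.14 ± 0.14 in T5R1. Its call was lost in 7 of 16 alternatives (adjusted p of up to 0.239), among them leaving out control replicate 1, 2 or 4 or stressed replicate 1 or 4. Its T10R1 hearts ran from 2.94 to 3.8 with stress, against 2.51 to 2.75 in controls. The other gene called in T10R1 and not in T5R1 was Dpt, dermatopontin, a small protein that binds decorin. Dpt ran from 2.1 to 2.55 with stress, against 1.71 to 1.82 in controls, and rose by 0.60 ± 0.11 (adjusted p = 0.0064). The difference of the stress effects between T10R1 and T5R1 was not called for either gene.

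Of the matricellular and adhesive genes, Fn1 stood at 4.67, 3.71, 3.5 and 4.71 in the T10R1 stressed hearts, against 2.88, 2.79, 3.14 and 2.81 in controls. Fn1 rose by 1.25 ± 0.31 (adjusted p = 0.0436), without overlap, and lost its call in 11 of 16 alternatives (adjusted p of up to 0.19), among them leaving out any of the controls or stressed replicate 1 or 4. Srpx stood at 1.15, 0.94, 1.02 and 1.24 in the stressed hearts, against 0.13, 0.15, 0.05 and 0.24 in controls. Both arms were tight and apart, and Srpx rose by 0.95 ± 0.14 (adjusted p = 0.000748), a call kept in all 16 alternatives. Sparc stood at 8.57, 8.25, 8.21 and 8.52 in the stressed hearts, against 7.61, 7.41, 7.98 and 7.5 in controls, and rose by 0.76 ± 0.13 (adjusted p = 0.00415). Ecm1 ran from 5.02 to 5.2 with stress, against 4.34 to 4.53 in controls, and rose by 0.66 ± 0.10 (adjusted p = 0.000665), and Matn2 rose by 0.49 ± 0.12, a call lost in 10 of 16 alternatives, among them leaving out any 1 heart of either arm. Pcolce (0.56 ± 0.16, adjusted p = 0.0809), Tnxb (0.34 ± 0.09, adjusted p = 0.0594) and Spp1 (0.91 ± 0.40) were not called. Tnxb passed the threshold after quantile normalization and in the authors' values, and Pcolce in the authors' values. Spp1 was above background on 3 stressed arrays and on 1 control array.

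Aspn stood at 1.57, 0.79, 0.66 and 1.73 in the T10R1 stressed hearts, against -0.01, 0.08, 0.19 and -0.24 in controls. It rose by 1.19 ± 0.27 (adjusted p = 0.0253) without overlap, and lost the call in 7 of 16 alternatives (adjusted p of up to 0.16), among them leaving out control replicate 1, 2 or 4 or stressed replicate 1 or 4. Lum stood at 5.09, 4.76, 4.66 and 5.37 in the stressed hearts, against 4.12, 4.01, 4.21 and 4.12 in controls, and rose by 0.85 ± 0.13 (adjusted p = 0.00119). Bgn stood at 1.91, 1.83, 1.55 and 1.77 in the stressed hearts, against 1.12, 0.91, 1.08 and 0.79 in controls, and rose by 0.79 ± 0.15 (adjusted p = 0.00674). Lum and Bgn had no overlap. Fmod (0.81 ± 0.23, adjusted p = 0.0825) and Vcan (0.38 ± 0.15, adjusted p = 0.282) were not called, although their arms did not overlap either.

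Nid1 alone of the basement membrane class was called in T10R1. It stood at 4.47, 4.34, 4.34 and 4.81 in the stressed hearts, against 3.98, 3.98, 3.94 and 3.86 in controls. Nid1 rose by 0.55 ± 0.12 (adjusted p = 0.0193), a call lost without control replicate 4 or stressed replicate 1 or 4 (adjusted p of up to 0.159 over 16 alternatives). Lamc1 was measured at 0.33 ± 0.10 (adjusted p = 0.108) and Nid2 at 0.22 ± 0.13 (adjusted p = 0.479). All 9 genes of the class were measured higher.

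The short and the long exposure shared most of their calls. Of the genes that rose, 18 rose in both T5R1 and T10R1, 9 in T5R1 alone and 2, Fbln1 and Dpt, in T10R1 alone. Dpt was called in T5R1 too after normexp correction, after quantile normalization and in the authors' values (0.34 in each). The 27 genes that rose in T5R1 were all measured higher in T10R1, with a median of 0.6 there, against 0.75 in T5R1. Across the 52 genes the changes of the 2 conditions, which have separate animals and controls, gave r = 0.81 and rho = 0.78, and 39 had the same sign. This is a description over genes, which are not independent replicates. The likeness of the 2 conditions over all genes is not given here, so it cannot be called particular to the 52. A difference of the stress effects between T10R1 and T5R1 was called for Chadl alone, where 0.36% of all genes were called higher in T10R1 and 0.232% lower. Chadl was measured at 0.21 ± 0.08 in T10R1, against the fall of 0.39 in T5R1, a difference of 0.60 ± 0.11 (adjusted p = 0.028). It was not called without T5R1 control replicate 2 or T10R1 stressed replicate 4, when no gene of the 52 was called. The larger gaps of Fbn1 (0.96 in T10R1, against 1.96 in T5R1), Vcan (0.38, against 1.19) and Emilin1 (0.63, against 1.26) were not called.

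**Figure D4:**
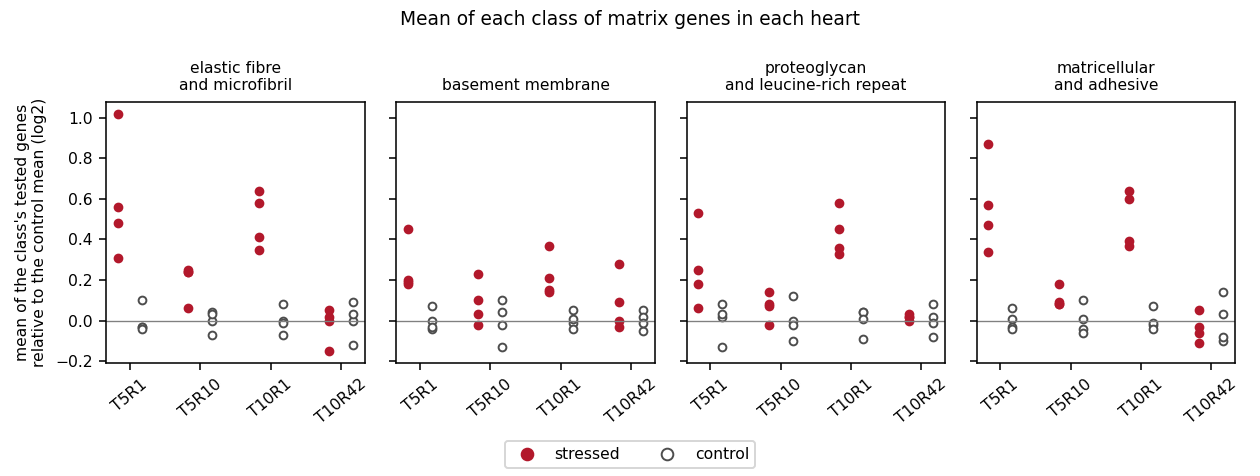
Mean level of the tested genes of each class in each heart, relative to the control mean of the condition (log2, vertical axis), with stressed hearts filled and controls open. In T5R1 and T10R1 the stressed hearts of the elastic fibre class lie between 0.31 and 1.02 and between 0.35 and 0.64, above all controls, and in T10R42 the arms overlap in every class.

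When 10 days had passed since the 5-day exposure (T5R10), none of the 52 genes was called by limma, where 0.0218% of all tested genes rose and 0.0545% fell, 0.0763% together. At an unadjusted p below 0.05 there were 9 higher and 0 lower. The median change was 0.1, against -0.02 over all genes, and 35 were measured higher, against 46.1% of all genes. In 8 genes (Mfap2, Mfap4, Mfap5, Emilin2, Fbln5, Ltbp3, Ogn and Fn1) every stressed heart lay above every control heart, where 2.6% of all genes did so, and in 0 genes below, where 3.23% did. For Mfap2 (0.30 ± 0.18) a second, dimmer probe gave -0.19 ± 0.13 in T5R10. Without the 3 arrays marked for evaluation Eln was called (0.61, adjusted p = 0.05 after rounding), and without stressed replicate 2 Pcolce2 was (0.40, adjusted p = 0.0465). Over all 27532 genes 330 rose and 758 fell without the marked arrays, and 278 and 328 without stressed replicate 2. With all arrays 6 rose and 15 fell, so the near absence of calls in T5R10 depends on these arrays.

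Mfap4 stood at 3.24, 3, 3.37 and 3.21 in the T5R10 stressed hearts, against 2.54, 2.58, 2.66 and 2.38 in controls, a change of 0.66 ± 0.22 (adjusted p = 0.178) with no overlap. Aspn stood at -0.07, -0.54, 0.24 and 0.36 in the stressed hearts, against -0.47, -0.67, -0.46 and -0.8 in controls. Its change was 0.60 ± 0.27 (adjusted p = 0.313), and stressed replicate 2 lay among the controls. Lamc1 stood at 4.56, 4.27, 4.43 and 4.53 in the stressed hearts, against 4.28, 4.18, 4.09 and 4.22 in controls, a change of 0.26 ± 0.10 (adjusted p = 0.23) with arms that just touched. Pcolce2 stood at 2.33, 1.88, 2.09 and 2.31 in the stressed hearts, against 1.93, 1.68, 1.96 and 1.78 in controls. Its change was 0.31 ± 0.11 (adjusted p = 0.186), with 1 stressed heart inside the control range.

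The stress effect, taken with its sign, was called lower in T5R10 than in T5R1 for 9 genes and higher for Emilin2, where 1.31% and 1.18% of all genes were called so, 2.49% in either direction. The 9 were Fbn1 (-1.68 ± 0.33, adjusted p = 0.00705), Mfap5 (-1.08), Vcan (-1.05), Emilin1 (-0.99), Srpx (-0.97), Pcolce (-0.94), Lum (-0.78), Sparc (-0.69) and Fbln2 (-0.67). Fbn1 stood at 0.09, -0.24, 0.13 and 0.52 in the T5R10 stressed hearts, against 0.14, -0.03, -0.33 and -0.42 in controls, so its arms overlapped again. For Emilin2 the difference was 0.62 ± 0.14 (adjusted p = 0.0173), since it was measured at 0.24 ± 0.10 in T5R10 after its fall in T5R1. The count of 9 was 4 without T5R1 stressed replicate 1 and 5 without T5R10 control replicate 2. Of the 27 genes that rose in T5R1, 22 were measured higher in T5R10, with a median of 0.26 and a range from -0.2 to 0.66.

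**Figure D5:**
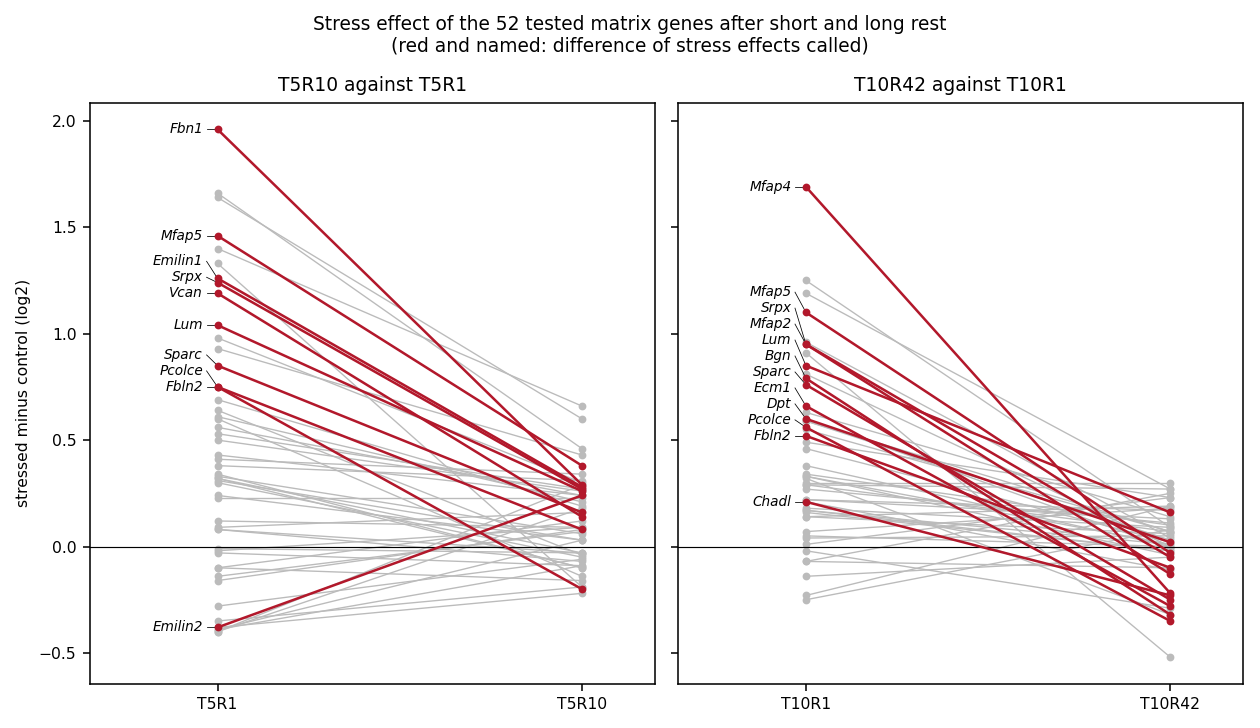
Stress effect (stressed minus control, log2, vertical axis) of each of the 52 genes in T5R1 and T5R10 (left) and in T10R1 and T10R42 (right), with a line for each gene. Red, named lines are the genes whose difference of stress effects was called, 10 on the left and 12 on the right, and they run toward or past 0 with the longer rest, Emilin2 upward.

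When 42 days had passed since the 10-day exposure (T10R42), again none of the 52 genes was called by limma, where 0.287% of all tested genes rose and 0.61% fell, 0.897% together. At an unadjusted p below 0.05 there were 2 higher and 4 lower. The median change was 0.02, against -0.03 over all genes, and 29 were measured higher, against 44.5% of all genes. Every stressed heart lay above every control for Smoc2, and below for Fbn2, Bgn, Chadl, Ecm1 and Pcolce, where 4.15% and 7.3% of all genes were so placed.

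Smoc2, a calcium-binding matricellular protein, had the smallest adjusted p. It stood at 4.66, 4.68, 4.83 and 4.65 in the T10R42 stressed hearts, against 4.55, 4.35, 4.42 and 4.51 in controls, a change of 0.25 ± 0.07 (adjusted p = 0.0832). Chadl stood at 0.79, 1.08, 1.06 and 1.04 in the stressed hearts, against 1.22, 1.09, 1.28 and 1.31 in controls, a change of -0.23 ± 0.08 (adjusted p = 0.118). Fbn2, the fibrillin of developing tissue, stood at -1.94, -2.03, -2.11 and -1.85 in the stressed hearts, against -1.63, -1.78, -1.6 and -1.76 in controls, a change of -0.29 ± 0.16 (adjusted p = 0.345). Agrn stood at 3.53, 3.47, 3.65 and 3.77 in the stressed hearts, against 3.6, 3.34, 3.38 and 3.33 in controls. Its change was 0.19 ± 0.11 (adjusted p = 0.337), and the arms overlapped. A second, dimmer Agrn probe gave -0.27 ± 0.17 in T10R42.

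The stress effect, taken with its sign, was called lower in T10R42 than in T10R1 for 12 genes and higher for none, where 2.23% and 1.89% of all genes were called so. The 12 were Mfap4 (-1.91 ± 0.31, adjusted p = 0.00439), Mfap5 (-1.14), Bgn (-1.11), Mfap2 (-1.08), Sparc (-1.01), Srpx (-1), Ecm1 (-0.94 ± 0.14, adjusted p = 0.00223), Pcolce (-0.91), Lum (-0.69), Fbln2 (-0.62), Dpt (-0.59) and Chadl (-0.44). Chadl, uncalled in either condition, was measured on opposite sides of 0, at -0.23 in T10R42 and 0.21 in T10R1. Mfap4 stood at 2.21, 2.3, 2.59 and 2.43 in the T10R42 stressed hearts, against 3.09, 2.35, 2.53 and 2.45 in controls, with overlapping arms. Ecm1 ran from 4.21 to 4.53 with stress, against 4.55 to 4.69 in controls, a change of -0.28 ± 0.10 (adjusted p = 0.117). The count of 12 was 6 without T10R1 stressed replicate 1 and 7 without T10R42 stressed replicate 3. Of the 20 genes that rose in T10R1, 11 were measured higher in T10R42, with a median of 0.02 and a range from -0.32 to 0.27. Mfap5, Fbln2, Lum, Sparc, Srpx and Pcolce were called lower after the longer rest for both exposures.

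For some genes a second probe gave another answer. Mfap2 was measured by a probe at chr4:140571828-140571887 and a dimmer one at chr4:140570920-140570979 (mm9, plus strand). In T5R1 they gave 0.98 ± 0.18 and -0.13 ± 0.13, and in T10R1 0.95 ± 0.18 and 0.49 ± 0.13. Vcan was measured by a probe at chr13:89795080-89795139, designed to one transcript accession, and a dimmer one at chr13:89851810-89851869, designed to another (mm9, minus strand), which in T5R1 gave 1.19 and 0.25 ± 0.11. This pair was picked out after its values were seen. The last 30 of each probe's 60 bases are shown, as the array design lists them, because the called rise rests on the brighter probe of each pair, with the letters AATAAA of a polyadenylation signal in capitals.
Mfap2, brighter probe: tttatacaaaatAATAAAagtttttacaaa
Mfap2, dimmer probe: ttgcaaacagtgtctcaatgaggtctgctt
Vcan, brighter probe: atcactgtgttgacttactagggctttttt
Vcan, dimmer probe: atagcagatttgatgcctactgctttaaac
In these 30 bases the brighter Mfap2 probe holds the letters and the other three do not. Averaged over its probes Mfap2 was measured at 0.42 in T5R1 and kept its call. Fbn2 gave 0.32 with the brighter probe and 1.79 ± 0.41 (adjusted p over all probes = 0.00537) with a dimmer one that was above background on 16 of 32 arrays, and averaged over both it was called (1.05, adjusted p = 0.00404). Hspg2 gave 0.32 with the brighter probe in T5R1. Its dimmer probe, above background on all 32 arrays, gave 0.46 ± 0.08 (adjusted p over all probes = 0.000514). Averaged over both Hspg2 was called (0.39, adjusted p = 0.00174). Agrn gave 0.30 with the brighter probe and -0.42 ± 0.17 with the dimmer one in T5R1. Ltbp3 gave 0.43 with the brighter probe and 0.13 ± 0.12 with the dimmer one in T5R1, and averaged over both it was not called in T5R1 (0.28, adjusted p = 0.0721) or in T10R1 (0.39, adjusted p = 0.0659). Nid1 gave 0.53 with its brightest probe in T5R1, and 0.54 ± 0.15 and 0.12 ± 0.15 with the other two. Sparc, with 0.85 and 1.34 ± 0.16, and Srpx2, with 0.69 and 1.16 ± 0.17, rose by both probes.

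The 2 untested genes were near background. Tnc, tenascin-C, a matricellular protein of wound repair, was above background with 1 of its 2 probes on 3 of 16 stressed arrays and 0 of 16 control arrays, and Hapln1, a link protein of hyaluronan and proteoglycan, on 4 and 0. No fold is given for them.

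Other matrix glycoproteins and proteoglycans were taken as a list of 78 genes outside the 54. Of 70 tested 17 rose and 5 fell in T5R1 (median 0.05). Over all genes 5.3% rose and 8.43% fell there (median -0.12), so falls were not more frequent in the list. The list genes with the smallest p were Igfbp7 (1.33 ± 0.14), Cilp (2.78 ± 0.32), Thbs4 (2.38 ± 0.30) and Svep1 (0.89 ± 0.12). In T10R1 11 rose and 1 fell (median 0.16), where 0.774% of all genes rose and 0.36% fell. Svep1 was at 1.04 ± 0.12 there and Ccn5 at 1.23 ± 0.15. Of 28 tested matrix receptors 5 rose and 1 fell in T5R1. The integrin chains Itga11, a collagen receptor of fibroblasts, and Itgb1, its partner, rose by 0.93 ± 0.25 and 0.41 ± 0.12, the syndecan Sdc2 rose by 0.30 ± 0.09 and the sarcoglycan Sgca of the muscle membrane fell by 0.44 ± 0.11. In T10R1 Itga11 alone rose (1.04 ± 0.25). Neither list had a called gene in T5R10 or T10R42, where 0.0763% and 0.897% of all genes were called.

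Several markers of the cells that make matrix rose in the same conditions as many of the 54 genes. In whole-heart RNA, more or fewer cells of a type and more or less RNA per cell cannot be told apart. The shares over all genes to set beside the marker counts are 5.3% risen and 8.43% fallen in T5R1. In T10R1 they are 0.774% and 0.36%. Of 18 fibroblast markers 8 rose and 2 fell in T5R1, and 9 rose in T10R1. Measured higher were 13 in T5R1 (median 0.31) and 16 in T10R1 (median 0.49). Their mean lay 0.36 to 0.87 above the control mean in T5R1 stressed hearts, against -0.04 to 0.09 in controls, and 0.49 to 0.9 in T10R1 stressed hearts, against -0.03 to 0.04 in controls. The collagens among them, Col3a1 (2.95 ± 0.32 in T5R1) and Col1a1 (2.53 ± 0.30), rose most, while the fibroblast receptor Pdgfra was measured at 0.32 ± 0.13 (adjusted p = 0.0962). These collagens are matrix genes themselves and are part of the mean. Of 12 activated fibroblast markers 9 rose in T5R1 and 7 in T10R1. Their mean lay 1.13 to 2.8 above the control mean in T5R1 stressed hearts, against -0.11 to 0.14 in controls. Several of these markers are matrix genes themselves, so they are not independent of the list.

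Of 20 macrophage markers 10 rose in T5R1, where their mean ran from 0.2 to 0.84 in stressed hearts, against -0.11 to 0.07 in controls. In T10R1 1 rose and 1 fell, 18 of 20 were measured higher (median 0.3), and the mean ran from 0.11 to 0.46 in stressed hearts, against -0.13 to 0.07 in controls, without overlap. Of 15 dividing cell markers 13 rose in T5R1 and 1 in T10R1. None of the 16 endothelial markers was called in any condition, and of 16 cardiomyocyte markers Tnni3 alone was called, with a fall in T5R1 (-0.32 ± 0.10). Of the cardiomyocyte markers 3 were measured higher in T5R1 (median -0.19), against 33.4% of all genes (median -0.12). Their mean there ran from -0.34 to -0.01 in stressed hearts, against -0.03 to 0.01 in controls. In T10R1 2 were measured higher (median -0.12), against 50% of all genes (median 0). The mean there ran from -0.18 to -0.06 in stressed hearts, against -0.07 to 0.06 in controls. The cartilage and valve markers, with 7 of 12 tested, gave 1 rise and 3 falls in T5R1, where the mean ran from -0.47 to 0.02 in stressed hearts, against -0.02 to 0.04 in controls. Of 15 smooth muscle markers 1 rose and 2 fell in T5R1. Of 9 tested skeletal muscle markers 1 rose and 1 fell, and of 12 epicardial markers 1 rose. Over all genes 5.3% rose and 8.43% fell, so the counts of the smooth muscle, skeletal muscle and epicardial lists are near that share. The 3 falls among the 7 tested cartilage and valve markers are above it. Of 11 tested adipocyte markers none was called, but 1 was measured higher in T5R1 (median -0.76) and 0 in T10R1 (median -0.87). Their mean ran from -2.3 to 0.11 in T5R1 stressed hearts, against -0.34 to 0.36 in controls, and from -2.06 to -0.29 in T10R1 stressed hearts, against -0.31 to 0.63 in controls. The 3 tested airway markers had no call. In T10R1, 1 cartilage or valve and 1 skeletal muscle marker rose. No marker of any list was called in T5R10 or T10R42, where 0.0763% and 0.897% of all genes were called. The part of these markers in the changes of the matrix genes was not tested.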

How the data were processed

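Intensity values per spot came from the deposited scanner output of 1-colour Agilent arrays. Per the file headers, Feature Extraction 10.7.3.1 had detrended and background-subtracted them, with a surrogate for spots not above background. The deposited files also hold other values, flags of 0 or 1 per spot. The authors' table holds log2 values, which match the mean spot signal quantile normalised within each slide (column medians 5.854 to 6.259). It was used as an alternative only, its processing being read from the values. No aligner applies, and probe positions come from the array's own mm9 annotation.

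Processed signals were put on the log2 scale here and centred on the 75th percentile of their array, without control and outlier spots. A probe was kept if 3 or more of a group's 4 arrays had it well above background and at most 4 arrays lacked it. This left 38824 probes and 27532 genes, each represented by its brightest probe. limma 3.58.1 in R 4.3.3 fitted 8 group means over 32 arrays (24 residual and 2.28 prior degrees of freedom), with Benjamini-Hochberg adjustment over all genes. The test was checked on simulated data with independent normal noise and no slide or animal effects. For T5R1 changes of 0.5, 1, 1.5 and 2, in 50 genes each, 36%, 72%, 100% and 96% were recovered. Of the simulated calls 4.4% were false. Changes of 0.5 were thus missed more often than called in the simulation. It changed far fewer genes than the 3778 called in T5R1, which made its adjusted p stricter than there. Its recovery therefore does not give that of T5R1, where smaller changes such as that of Lama4 (0.34) were called. A gene not called may still have changed. Precision is limited by 4 mice per group.

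The 54 genes, the 14 other lists and the rule for named genes were chosen with earlier results of these data known. Values of every animal were given for the 3 called genes of each class with the largest change in T5R1 and T10R1, every gene called lower, and in T5R10 and T10R42 the gene of each class with the smallest p. Promoters are from RefSeq, where 40 of the 54 genes had an entry. The labels do not say whether the same replicate number in both arms marks a pair of animals, and they were not treated as pairs. Deviations of same-numbered hearts from their group means gave r from -0.27 to 0.21 (16 pairs), which cannot settle it. Alternatives were normexp correction with an offset of 50, quantile normalization, the authors' values, no filter on dim probes, the mean of a gene's probes, blocks for replicate number and slide row, single-condition fits, and leaving out arrays.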

Additional observations from a re-analysis of the deposited data

Results flagged for a closer look

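In groups of 4 a heart was singled out where its gap to the next heart, over the group's range, passed Dixon's 95% critical value, which chance gives in about 1 in 20 groups. Of the 168 groups of the 21 genes with values for every animal, 11 were singled out, and of the 416 groups of all 52 genes 27. For Aspn in T5R1 stressed replicate 1 (2.54) lay above the rest, and for Vcan in T10R1 stressed replicate 1 (0.1). For Smoc2 in T10R42 it was stressed replicate 3 (4.83), and for Chadl in T10R42 stressed replicate 1 (0.79, low) and in T5R10 control replicate 3 (1.31, high). For Agrn it was stressed replicate 3 in T5R10 (3.2, low) and stressed replicate 4 in T10R1 (4.1, high), for Lamb2 stressed replicate 4 in T5R10 (3.87, low) and for Nid1 control replicate 1 in T5R1 (3.98, high). For Fbn2 it was control replicate 3 in T10R1 (-2.05, high) and for Pcolce2 control replicate 4 in T10R1 (2.14, low).

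Differences of stress effects between conditions passed the test for 23 pairs of gene and comparison. For T5R10 minus T5R1 they were Fbn1 (-1.68), Mfap5 (-1.08), Vcan (-1.05), Emilin1 (-0.99), Srpx (-0.97), Pcolce (-0.94), Lum (-0.78), Sparc (-0.69), Fbln2 (-0.67) and Emilin2 (0.62). For T10R42 minus T10R1 they were Mfap4 (-1.91), Mfap5 (-1.14), Bgn (-1.11), Mfap2 (-1.08), Sparc (-1.01), Srpx (-1), Ecm1 (-0.94), Pcolce (-0.91), Lum (-0.69), Fbln2 (-0.62), Dpt (-0.59) and Chadl (-0.44). For T10R1 minus T5R1 it was Chadl (0.60).

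Among probes left out as too dim, the Hapln1 probe was well above background on 4 stressed arrays and 0 control arrays, 1 in each condition. A Tnc probe was so on 3 stressed arrays, 2 in T5R1 and 1 in T10R1, and 0 control arrays.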

How the results depend on the processing

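No change of a called gene turned its sign in any alternative. Some genes that were not called gained a call in 1 or more alternatives. In T5R1 these were Agrn, Dcn, Dpt, Fbn2 and Hspg2, all higher, and Efemp1, lower. In T10R1 they were Dcn, Fmod, Lamc1, Pcolce and Tnxb, all higher. The count of genes that rose in T5R1 (27) ran from 23 to 28 on leaving out each heart and was 30 after normexp correction, 31 after quantile normalization and 30 in the authors' values. The count that fell (3) ran from 1 to 3 and was 1 with the condition fitted alone. In T10R1 the count that rose (20) ran from 10 to 18 on leaving out each heart, and was 12 with the replicate block and 1 with the condition fitted alone, which has fewer samples to estimate the spread. In T5R10 it ran from 0 to 1 and was 1 (Eln) without the arrays marked for evaluation, where 330 of all 27532 genes rose. In T10R42 it stayed at 0. For T5R10 minus T5R1 the 9 lower ran from 4 to 12 on leaving out each heart and were 5 with the replicate block, 2 with the conditions alone and 3 without the marked arrays. The 1 higher stayed at 1 on leaving out each heart and was 0 after quantile normalization and 0 with the conditions alone. For T10R42 minus T10R1 the 12 lower ran from 6 to 12, and 1 higher appeared after normexp correction and 1 with slide row as a block. For T10R1 minus T5R1 the 1 higher ran from 0 to 2 and was 0 without the filter on dim probes and 0 with the replicate block, and the lower ran from 0 to 1 and was 1 with slide row as a block. The causes were not tested.

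Scaling moved all genes together. In T5R1 the median of all genes was -0.12, and -0.14 after normexp correction, -0.03 after quantile normalization and -0.02 in the authors' values, with member medians of 0.33, 0.37, 0.4 and 0.39. Of all genes called in T5R1, 61.4% were lower, against 70.7%, 36.5% and 38.7% in those alternatives. Within slide rows, each with 2 arrays per arm, all 27 genes that rose in T5R1 and all 20 in T10R1 were measured higher in both rows, and all 3 that fell in T5R1 lower. The genes had been called on these same arrays, so this outcome was largely fixed in advance and is no separate support. Of 16 same-numbered pairs of hearts 5 correlated above 0.1 and 7 were closest to their own number. Same-numbered hearts also share a slide row, so these values cannot tell whether the replicate block pairs animals. Dim probes, such as those of Spp1, Fbn2 and Tnc, limit what can be measured.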
